A study of Mus musculus with 15 samples.

Results

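Bidirectional promoters are short stretches of DNA from which a pair of genes is transcribed in opposite directions. Here they were defined as the promoters of protein-coding genes that lie head to head: the gene on the minus strand to the left, the gene on the plus strand to the right, annotated gene bodies that do not overlap, and 5′ ends at most 1000 bp apart. On chromosomes 1 to 19 of GRCm39, 386 such pairs were found. They hold 763 of the 20621 protein-coding genes, 9 of them in 2 pairs. The window of a pair was the span between the 5′ ends extended by 500 bp on either side, and a pair was called marked in a list when a peak overlapped its window by at least 1 bp. The choice of pairs used the annotation only and no measured value. The 19858 other coding promoters, each a window of 500 bp on either side of the gene's 5′ end, were measured for comparison.

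ChIP–seq for H3K4me3 (histone H3 trimethylated at lysine 4) was performed on mBA cells after differentiation, a brown adipocyte model from mouse. The sample labels call the cells primary, whereas the study's methods describe brown preadipocytes immortalized with SV40 large T antigen. All 3 conditions share this background: wild type cells without treatment (WT), wild type cells given a cell-permeable octyl ester of d-2-hydroxyglutarate at 500 µM for 72 h (WT + 2HG), and cells knocked out for Clpp and left untreated (CLPP-KO), whose medium also carried uridine, so that genotype and uridine cannot be told apart. There were 4 ChIP samples and 1 input sample per condition. The authors called peaks on the 4 replicates together, which gave lists of 12342 (WT), 14059 (WT + 2HG) and 15118 peaks (CLPP-KO). With 1 list per condition there is no spread between replicates and no test between conditions. The 95% intervals given below (Wilson intervals for shares, exact binomial intervals for medians) cover counting over promoters only, and the lists hold no read counts from which the depth of a sample could be computed. Of 12 adipocyte markers, 3 had a promoter peak in WT (Pparg, Cebpa and Prdm16) and 6 in each of the other lists, whereas Adipoq, Fabp4, Ucp1, Ppargc1a and Dio2 had none in any list. None of the 4 macrophage or 3 endothelial markers had a peak, and of 3 muscle markers 1, Myod1, had a peak in CLPP-KO alone.

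Divergent coding pairs are known from many genomes and are common among genes that every cell uses, such as those of DNA repair, the ribosome and mitochondria. Most lie in CpG islands, share binding sites for general activators and lack a TATA box, and the DNA between the start sites is kept free of nucleosomes while the first nucleosomes of each gene carry H3K4me3. The mark is written by SET1 and MLL complexes and removed by 2-oxoglutarate-dependent KDM5 demethylases, a class of enzymes that 2HG can inhibit. CLPP is the proteolytic subunit of a protease of the mitochondrial matrix.

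The DNA between the 5′ ends is shown for 10 pairs (GRCm39, plus strand, 5′ to 3′, as read from the reference genome). Capitals mark exact matches, on either strand, to the GC box GGGCGG bound by Sp and KLF factors, the CCAAT box bound by NF-Y, or TATAAA. The first 3 are pairs whose peaks differed in presence between the lists:
Btf3l4/Txndc12 (chr4:108691487-108691573): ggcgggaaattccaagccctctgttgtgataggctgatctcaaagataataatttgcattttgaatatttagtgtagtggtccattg
Sec1/Car11 (chr7:45349013-45349211): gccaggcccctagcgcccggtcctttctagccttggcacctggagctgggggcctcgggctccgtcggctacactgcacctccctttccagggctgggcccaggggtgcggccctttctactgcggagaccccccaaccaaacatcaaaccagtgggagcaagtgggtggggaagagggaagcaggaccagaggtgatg
Rnf121/Xntrpc (chr7:101714691-101714919): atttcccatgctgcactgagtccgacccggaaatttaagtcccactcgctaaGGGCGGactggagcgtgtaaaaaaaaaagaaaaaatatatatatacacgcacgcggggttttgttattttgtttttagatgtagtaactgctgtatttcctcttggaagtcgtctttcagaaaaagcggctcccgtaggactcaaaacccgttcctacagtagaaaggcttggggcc
The other 7 were chosen after their values were seen. Uqcrh/Lrrc41, Tecr/Dnajb1, Arcn1/Ift46 and Zwilch/Rpl4 were marked at 1 gene in WT and at both genes in the other lists, the Zfp91/Lpxn peak had the largest change in width, Cep57/Fam76b kept separate peaks at its ends, and H2ac8/H2bc8 had no peak:
Uqcrh/Lrrc41 (chr4:115932297-115932465): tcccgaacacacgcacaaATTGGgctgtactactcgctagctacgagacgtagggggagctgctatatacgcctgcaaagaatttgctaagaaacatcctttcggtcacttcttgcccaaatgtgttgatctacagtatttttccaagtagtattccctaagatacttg
Tecr/Dnajb1 (chr8:84334601-84334810): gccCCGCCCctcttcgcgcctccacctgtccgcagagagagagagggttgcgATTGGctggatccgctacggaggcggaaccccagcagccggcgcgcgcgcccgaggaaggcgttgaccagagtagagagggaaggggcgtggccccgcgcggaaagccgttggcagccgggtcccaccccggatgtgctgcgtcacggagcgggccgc
Arcn1/Ift46 (chr9:44679148-44679204): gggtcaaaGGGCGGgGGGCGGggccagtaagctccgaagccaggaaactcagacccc
Zwilch/Rpl4 (chr9:64080387-64080617): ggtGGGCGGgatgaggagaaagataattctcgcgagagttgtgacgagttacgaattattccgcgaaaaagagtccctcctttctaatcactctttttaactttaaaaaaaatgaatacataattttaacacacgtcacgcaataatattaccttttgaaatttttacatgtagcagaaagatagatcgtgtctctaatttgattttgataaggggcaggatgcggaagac
Zfp91/Lpxn (chr19:12773493-12773556): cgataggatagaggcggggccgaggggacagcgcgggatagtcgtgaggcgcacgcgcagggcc
Cep57/Fam76b (chr9:13738707-13739001): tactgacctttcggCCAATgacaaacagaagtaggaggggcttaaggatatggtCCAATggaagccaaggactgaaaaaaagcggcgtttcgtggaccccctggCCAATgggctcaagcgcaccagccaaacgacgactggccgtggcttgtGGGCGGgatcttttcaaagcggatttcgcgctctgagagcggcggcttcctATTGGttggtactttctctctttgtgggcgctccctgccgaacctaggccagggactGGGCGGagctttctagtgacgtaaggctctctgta
H2ac8/H2bc8 (chr13:23755395-23755569): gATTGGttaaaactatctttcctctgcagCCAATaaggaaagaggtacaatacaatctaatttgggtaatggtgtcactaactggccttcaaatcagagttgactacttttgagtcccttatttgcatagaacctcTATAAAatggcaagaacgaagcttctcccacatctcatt
GC content ranged from 36.8% between Zwilch and Rpl4 to 72.4% between Tecr and Dnajb1. The Cep57/Fam76b span held 4 CCAAT boxes and 2 GC boxes. The H2ac8/H2bc8 span held 2 CCAAT boxes and the only TATAAA among the 10, and had 1 CpG in 175 bases, against 26 in 210 between Tecr and Dnajb1.

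The 5′ ends of the pairs lay 1 to 984 bp apart, with a median of 84 bp (71 to 104). In the 1001 bp around the midpoint, the ratio of observed to expected CpG dinucleotides had a median of 0.749 (0.732 to 0.762), against 0.501 (0.491 to 0.510) around the 5′ ends of other coding genes. A ratio of at least 0.6 was reached by 304 pairs (78.8%) and by 42.1% of the others. Sequence motifs were counted from 250 bp before to 50 bp after each gene's 5′ end on both strands, so that a copy between close 5′ ends counts for both genes. The GC box GGGCGG occurred in 65.9% of the genes of pairs (62.5 to 69.2%) and in 35.1% of the other coding genes, and the CCAAT box in 52.2 and 38.9%. The GABP site CCGGAAGT was found in 9.83% against 3.36%, the NRF1 site CGCATGCG in 5.51% against 1.85%, and the YY1 site AAGATGGCG in 3.28% against 1.02%. The TATA box TATAAA went the other way, with 5.64% of the genes of pairs (4.21 to 7.51%) and 14.1% of the others. The ZNF143 core ACTACAATT was in 3 genes of pairs (0.393%) and in 0.483% of the others. Over all 20621 coding genes, the shares were 36.2% for the GC box, 39.4% for CCAAT, 3.60% for GABP, 1.98% for NRF1, 1.10% for YY1, 13.8% for TATA and 0.480% for ZNF143. Where the promoter was marked in all 3 lists, the GC box was in 71.9% of the genes of pairs and 57.9% of the others. For CCAAT these shares were 51.9 and 37.7%, for GABP 11.9 and 6.10%, and for NRF1 6.38 and 3.46%. YY1 had 3.79 and 1.86%, TATA 3.10 and 7.8%, and ZNF143 0.517 and 0.608%.

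Most pairs were marked. A peak was present at 302 of 386 pairs in WT (78.2%, 73.9 to 82.1%), 321 for WT + 2HG (83.2%, 79.1 to 86.6%) and 319 for CLPP-KO (82.6%, 78.6 to 86.1%). Among other coding promoters the shares were 43.8, 48.7 and 50.2%, below the interval of the pairs in every list. The shares of pairs were lower by a few percentage points than those of the 1399 other promoters whose gene overlaps a divergent coding gene at the 5′ end (84.0, 88.6 and 89.6%). They were above those of the 1492 with a divergent noncoding gene (62.8, 68.0 and 69.3%) and of the 16967 with neither (38.8, 43.7 and 45.3%). Among promoters with a CpG ratio of at least 0.6 the intervals of pairs and others overlapped: 87.5% of such pairs (83.3 to 90.8%) and 85.6% of such others (84.9 to 86.4%) were marked in WT, 91.8 and 91.7% in WT + 2HG, and 92.1 and 93.3% in CLPP-KO. At CpG ratios from 0.4 to 0.6, 32 of 51 pairs were marked in WT (62.7%, 49.0 to 74.7%) against 43.9% of the others. For WT + 2HG the shares were 74.5% (61.1 to 84.5%) and 55.2%, and for CLPP-KO they were 68.6% (55.0 to 79.7%) and 60.1%, so that in CLPP-KO the interval of the pairs held the share of the others. The pair's window is longer than that of a single 5′ end and takes in the bodies of 2 genes, so the ends were also counted singly. Of the 772 ends, 461 had a WT peak within 500 bp into the gene (59.7%, 56.2 to 63.1%), against 43.2% of other coding genes, and 526 (68.1%) in each of the other lists, against 48.3% in WT + 2HG and 49.8% in CLPP-KO. These single-end shares are not split by CpG ratio, whereas the shares by CpG ratio count a pair as marked with a peak at either gene. Single ends of pairs and of others are therefore not compared at a like CpG ratio.

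**Figure D1:**
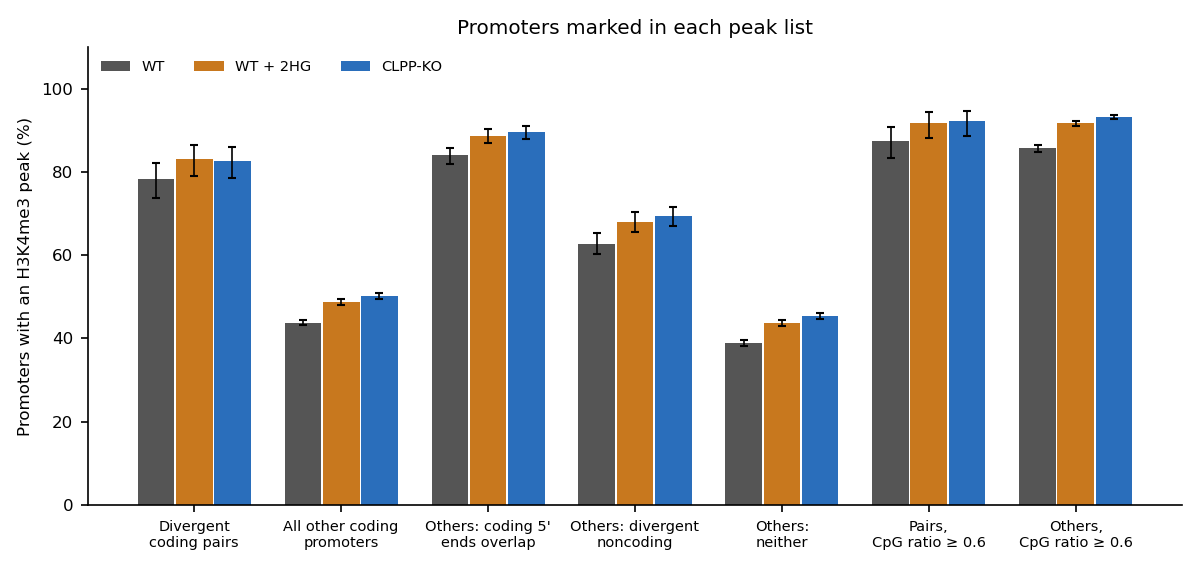
Share of promoters (%) with an H3K4me3 peak in each peak list, for divergent coding pairs and classes of other coding promoters; error bars are 95% Wilson intervals. Pairs (78.2 to 83.2%) stood above all other coding promoters (43.8 to 50.2%), and the bars were at similar heights where the CpG ratio was at least 0.6.

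The summits of the mark lay on the genes and rarely between the 5′ ends. In WT, the summit of the pair's strongest peak, the position of its maximum, fell between the 5′ ends in 5 of 302 marked pairs (1.66%), in WT + 2HG in 7 of 321 and in CLPP-KO in 5 of 319. The span between the 5′ ends is short. At 128 of 386 pairs the ends were at most 50 bp apart, against a median marked width of 1014 bp in WT. Whether summits avoid the span beyond its short length was not tested. The distance of the summit was therefore also taken. The summit's median distance from the midpoint was 380.5 bp in WT (355 to 399), and it lay on the left gene's side in 48.3% of pairs. At the 5′ end itself a peak was present in 45.0% of the 604 ends of pairs marked in WT, at 200 bp into the gene in 68.1%, and at 400 bp upstream, which for close pairs is the body of the partner gene, in 64.1%. At other marked coding promoters the WT shares were 55.2% at the 5′ end, 85.3% at 200 bp into the gene and 16.5% at 400 bp upstream. The dip at the 5′ end was shallower in the other lists, where 61.4% of the ends in WT + 2HG and 59.9% in CLPP-KO were under a peak. The same position was covered in 71.0 and 70.4% of other marked promoters.

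**Figure D2:**
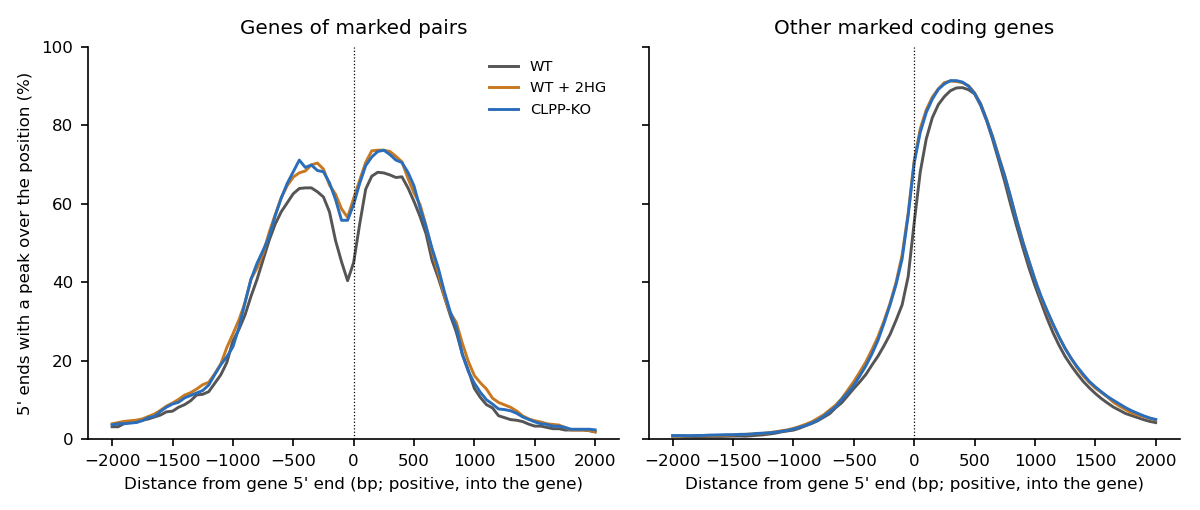
Share of 5′ ends (%) with a peak over each position, from 2000 bp upstream (negative) to 2000 bp into the gene (positive), for genes of pairs marked in each list (left) and other marked coding genes (right). Pairs have a peak on either side of the 5′ end with a dip at it (45.0% in WT, 61.4% in WT + 2HG, 59.9% in CLPP-KO at position 0), whereas other genes have a maximum inside the gene.

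Many pairs were marked at only 1 of their genes in WT. An end was counted as marked when a peak overlapped the 500 bp from the 5′ end into the gene. In WT, 159 of 302 marked pairs had both ends marked (52.7%, 47.0 to 58.2%), 72 the left gene alone and 71 the right gene alone. In WT + 2HG, 205 of 321 had both (63.9%), and in CLPP-KO 207 of 319 (64.9%). Of the 143 pairs marked at 1 end in WT, 45 were marked at both in WT + 2HG (31.5%, 24.4 to 39.5%) and 42 were so in CLPP-KO (29.4%, 22.5 to 37.3%), with 31 in both lists. In the opposite direction, 7 of the 159 pairs with both ends marked in WT had 1 end in WT + 2HG (4.40%, 2.15 to 8.81%), and 6 did so in CLPP-KO (3.77%, 1.74 to 7.99%). The state was the same in the 3 lists for 280 of 386 pairs. The lists differ in size, and the comparisons share the WT list. When each list was limited to as many peaks as WT holds, 61.9% of marked pairs in WT + 2HG and 59.0% in CLPP-KO had both ends marked. When a peak had to have its summit in the 500 bp, the shares fell to 16.5% (WT), 14.1% (WT + 2HG) and 15.8% (CLPP-KO), and the order of the lists was lost.

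A single peak spanned both 5′ ends in 89 pairs in WT (29.5% of marked pairs, 24.6 to 34.8%), 147 for WT + 2HG (45.8%, 40.4 to 51.3%) and 142 for CLPP-KO (44.5%, 39.2 to 50.0%). Such a peak was present in all 3 lists at 83 pairs, and at 38 pairs in WT + 2HG and CLPP-KO but not in WT. In WT + 2HG, 62 pairs had a spanning peak that was not in WT and 4 the reverse, and in CLPP-KO 56 and 3. Of the 62, 28 had separate peaks in WT and 28 a peak at 1 end, and of the 56, 23 had each. Close pairs were spanned most often: in WT, 51.9% of the marked pairs at 1 to 50 bp, 31.1% at 51 to 100 bp, 17.6% at 101 to 200 bp, 8.11% at 201 to 500 bp and none of 26 beyond 500 bp, which by the limit of 3 counts allows a share of up to 11.5% (12.9% by the Wilson interval). In WT + 2HG the same distances gave 69.0, 47.0, 38.0, 20.9 and 7.14%, and in CLPP-KO 67.8, 42.9, 37.5, 17.1 and 10.7%. The shares depend on how neighbouring peaks are joined: when peaks within 1000 bp of each other were merged, 53.0% of marked pairs were spanned in WT, 65.1% for WT + 2HG and 65.5% for CLPP-KO.

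**Figure D3:**
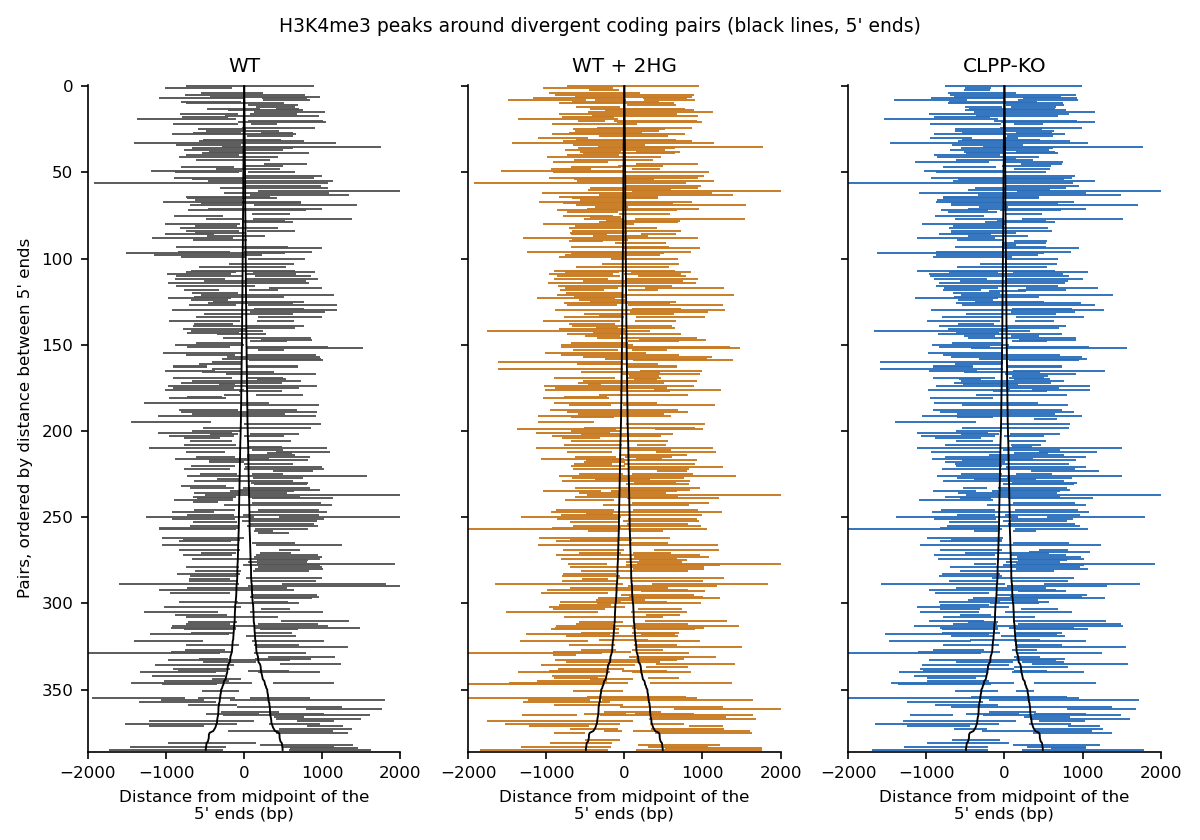
Every peak that overlaps a pair's window, drawn from its start to its end as distance (bp) from the midpoint of the 5′ ends; each row is 1 of 386 pairs, ordered by the distance between the 5′ ends (black lines), 1 to 984 bp. Most peaks extend outward from the black lines over the gene bodies, and a peak crosses both 5′ ends at more pairs in WT + 2HG (147) and CLPP-KO (142) than in WT (89).

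**Figure D4:**
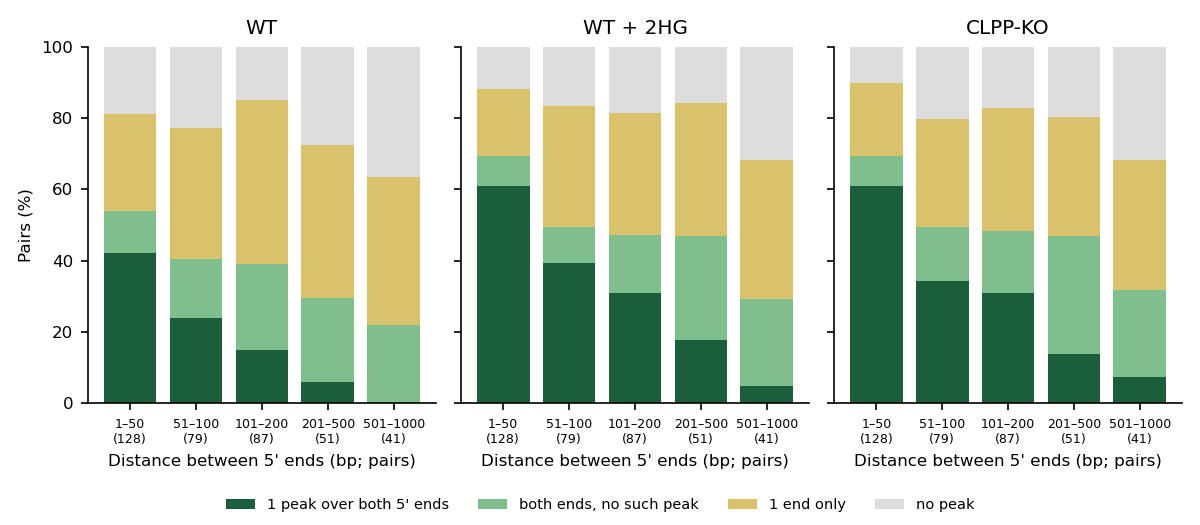
Share of pairs (%) by distance between the 5′ ends in the 3 lists, with the number of pairs in parentheses; colours give pairs with 1 peak over both 5′ ends, with both ends marked but no such peak, with 1 end marked, and with no peak. Spanning peaks are rarer at longer distances, from 51.9% of marked pairs at 1 to 50 bp in WT to none beyond 500 bp.

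The shorter of a pair's 2 reaches had a larger median in WT + 2HG and CLPP-KO than in WT, while the longer changed little. In each list the mark's reach into either gene was measured from the 5′ end, and the longer and the shorter reach of a pair were taken. The shorter reach was chosen within each list, so it need not be in the same gene across lists. It also rises when a second end becomes marked. Where in the pair the extra width lay was not tested. In the 293 pairs marked in all 3 lists, the longer reach had a median of 833 bp in WT, 855 bp for WT + 2HG and 850 bp for CLPP-KO. The shorter reach was 178 bp in WT (-10 to 284, where a negative value means that the mark stopped short of the 5′ end), 402 bp for WT + 2HG (289 to 433) and 410 bp for CLPP-KO (299 to 467). Their median marked width, the summed width of the peaks that overlap the window, was 1031 bp in WT (982 to 1143), 1217 bp for WT + 2HG (1165 to 1290) and 1218 bp for CLPP-KO (1147 to 1281). The 8555 other promoters marked in all 3 lists had the same order: 931, 1065 and 1072 bp, with a reach into the gene of 869, 914 and 916 bp and a reach upstream of 36, 109 and 103 bp. Over pairs marked in both lists, the median width ratio to WT was 1.10 in WT + 2HG (1.07 to 1.13) and 1.08 in CLPP-KO (1.05 to 1.11), against 1.10 and 1.09 for the others. Peak area, the authors' area under the curve, was ranked as a percentile within its list. The strongest peak of marked pairs had a median percentile of 58.9 in WT, 61.3 for WT + 2HG and 62.7 for CLPP-KO, close to the 59.0, 60.6 and 62.1 of other marked promoters.

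The pairs with the largest mean area percentile were Uqcrh/Lrrc41, Pfn1/Eno3, Srgap2/Fam72a, Pcid2/Cul4a and Gm20716/Mocs3. Uqcrh, which encodes the hinge subunit of respiratory complex III, and Lrrc41, a leucine-rich repeat protein, are separated by the 169 bases printed above. Their strongest peak was at percentile 99.1 in both WT and WT + 2HG and at 99.2 in CLPP-KO. In WT it covered Lrrc41 alone and stopped 247 bp short of the Uqcrh 5′ end. In WT + 2HG and CLPP-KO a separate peak on Uqcrh reached 633 and 301 bp into that gene, so that the marked width was 1773 bp in WT, 2393 bp for WT + 2HG and 2071 bp for CLPP-KO. Pfn1 encodes the actin-binding protein profilin and Eno3 the muscle enolase. Their window, with 5′ ends 617 bp apart, held 3 peaks in WT with 2424 bp in all, and 1 peak of 2967 bp for WT + 2HG and of 3353 bp for CLPP-KO. Pcid2, of the mRNA export machinery, and Cul4a, a cullin of ubiquitin ligases, shared 1 peak of 2589, 2593 and 2534 bp in the 3 lists, respectively. Srgap2 and Fam72a kept separate peaks in every list, with 3155, 3045 and 3721 bp in all. Mocs3, an enzyme of molybdenum cofactor synthesis, shared with Gm20716 a peak of 1999, 2339 and 2671 bp.

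Among the 31 pairs marked at 1 gene in WT and at both in the other lists, the 8 with the largest CLPP-KO percentile were Uqcrh/Lrrc41, Rpl7/Rdh10, Slc26a8/Mapk14, Foxa3/Sympk, Atp5if1/Dnajc8, Arcn1/Ift46, Tecr/Dnajb1 and Atm/Npat. Mapk14 encodes the p38α kinase, and its partner Slc26a8 an anion transporter of sperm. The peak in WT was on Mapk14 alone and stopped 92 bp before the Slc26a8 5′ end, and in WT + 2HG and CLPP-KO it reached 315 and 331 bp into Slc26a8. Its width was 1269, 1718 and 1833 bp. Sympk encodes symplekin, a scaffold of mRNA 3′ end processing, and Foxa3 a forkhead factor known from the liver. Sympk alone was marked in WT, with 939 bp, and a separate peak on Foxa3 made the width 1559 bp for WT + 2HG and 1299 bp for CLPP-KO. Rdh10, a retinol dehydrogenase, was marked in WT without Rpl7, a protein of the large ribosomal subunit whose 5′ end lies 669 bp away. The width was 1881 bp in WT, 2668 bp for WT + 2HG and 2317 bp for CLPP-KO. Tecr encodes the reductase that completes each round of very-long-chain fatty acid elongation, and Dnajb1 an Hsp40 cochaperone. In WT the peak of 736 bp lay on Dnajb1 and ended 232 bp short of the Tecr 5′ end, whereas 1 peak covered both 5′ ends in WT + 2HG (1567 bp) and CLPP-KO (1685 bp). Arcn1 encodes the δ subunit of the COPI coat and Ift46 a protein of intraflagellar transport. Here the peak edge moved little, from 28 bp short of the Ift46 5′ end in WT to 88 bp past it in WT + 2HG and 34 bp past it for CLPP-KO. Atp5if1, the inhibitor of the mitochondrial ATP synthase, was covered from the side of Dnajc8 in both lists, at a width of 998 bp in WT, 1049 bp for WT + 2HG and 929 bp for CLPP-KO.

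Of 13 textbook head-to-head pairs looked up, only Atm/Npat and Mcm4/Prkdc met the definition, and the annotated gene bodies of the other 11 overlap. Atm encodes a kinase of the DNA double-strand break response and Npat a coactivator of histone genes. Their 5′ ends, at chr9:53448236-53448247, are 11 bp apart. The peak was on Npat alone in WT (951 bp, percentile 73.5) and over both genes in CLPP-KO (1066 bp, 76.9). In WT + 2HG a peak over both genes and a further peak on Atm made 1407 bp in all (percentile 77.8). Mcm4, a subunit of the replicative helicase, and Prkdc, the catalytic subunit of DNA-dependent protein kinase, lie 434 bp apart. A separate peak marked each of them in every list, with 1140, 1325 and 1268 bp in all. Separate peaks in the 3 lists were also seen at Klhl17/Noc2l, the marked pair with the most distant 5′ ends at 984 bp, with 2511 bp in WT, 3248 bp for WT + 2HG and 3050 bp for CLPP-KO. Plag1/Chchd7, Cep57/Fam76b and Asb7/Lins1 had the same form. Cep57 encodes a centrosomal protein, and its peaks with those of Fam76b summed to 1807, 1716 and 1982 bp on either side of the printed span. At the other extreme, Bag4, a cochaperone, and Lsm1, which acts in mRNA decay, have adjacent 5′ ends 1 bp apart. They shared a peak of 1641, 1690 and 1748 bp at the 91.5, 92.5 and 95.4 percentile.

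Presence of the mark differed between the lists at few pairs. All 3 lists marked 293 pairs and none marked 55. Of the remaining 38, 19 had a peak in WT + 2HG and CLPP-KO but not in WT, 5 in WT + 2HG alone, 5 in CLPP-KO alone, 4 in WT and WT + 2HG, 3 in WT alone and 2 in WT and CLPP-KO. A peak absent from WT was thus present at 24 pairs in WT + 2HG, 6.22% of 386, where 5.46% of all coding promoters had one. In CLPP-KO the count was also 24, against 6.79% of all coding promoters. Both lists had such a peak at 19 pairs (4.92%), against 4.49%. These shares were near the background. Of the pairs without a peak in WT, 28.6% had one in each of the other lists (20 to 39%), against 9.70% of other coding promoters for WT + 2HG and 12.1% for CLPP-KO. The promoters were also split by CpG ratio, a choice made after seeing the data, and the direction turned in the upper part. At CpG ratios of at least 0.6, 16 of 38 such pairs had a peak in WT + 2HG (42.1%, 27.9 to 57.8%) against 45.8% of the others, and 18 had one in CLPP-KO (47.4%, 32.5 to 62.7%) against 55.2%. Below 0.6, 8 of 46 pairs had a peak in WT + 2HG (17.4%, 9.09 to 30.7%) against 5.34%, and 6 had one in CLPP-KO (13.0%, 6.12 to 25.7%) against 6.90%. The peaks were weak, with a median area percentile of 22.6 in WT + 2HG and 18.8 in CLPP-KO, against 17.7 and 21.9 at other coding promoters. A WT peak was absent at 5 pairs in WT + 2HG (1.30%), where the share of all coding promoters was 0.573%, and at 7 pairs in CLPP-KO (1.81%), against 0.410%. With 5 and 7 pairs the intervals were 0.554 to 3.00% and 0.881 to 3.70%. Only a promoter marked in WT can lack its peak elsewhere, and 78.2% of pairs but 43.8% of other coding promoters were marked in WT. These shares over all promoters therefore do not compare pairs and others on equal terms. In lists of equal size, by contrast, 20 pairs had a peak in WT + 2HG and not in WT and 15 the reverse, and 13 and 22 did so in CLPP-KO.

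Lyzl4/Vipr1 had the largest percentile among pairs that differed in presence. Vipr1 encodes a receptor for vasoactive intestinal peptide and Lyzl4 a lysozyme-like protein. Their 5′ ends, at chr9:121471162-121471775, had no peak in WT, 1 peak of 1264 bp over both genes in WT + 2HG (percentile 37.2) and 1 of 1238 bp for CLPP-KO (percentile 58.5). Cebpz, a factor of ribosome biogenesis, and Ndufaf7, an assembly factor of respiratory complex I, had no peak in WT, 1062 bp for WT + 2HG and 1052 bp for CLPP-KO over both ends, which are 24 bp apart. Mrpl54, a protein of the mitochondrial ribosome, and Apba3, an adaptor protein, shared a peak of 424 bp for WT + 2HG and 377 bp for CLPP-KO. Rnf5, a ubiquitin ligase of the endoplasmic reticulum, and Agpat1, which makes phosphatidic acid in glycerolipid synthesis, had 956 bp over both for WT + 2HG and 632 bp on Rnf5 for CLPP-KO. Rad51c, of homologous recombination, had 635 bp for WT + 2HG, and for CLPP-KO the mark of 709 bp took in its partner Tex14, a protein of germ cell bridges. The WT list had a peak 13 bp outside this window. Top3a, a DNA topoisomerase, was marked over 709 bp for WT + 2HG and together with Smcr8 over 1691 bp for CLPP-KO.

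Further pairs named by the same rule were marked at 1 gene. Reep6 of Pcsk4/Reep6 had 531 and 697 bp in WT + 2HG and CLPP-KO, Asphd1 of Asphd1/Sez6l2 had 456 and 624 bp, and Car11 of Sec1/Car11, a carbonic anhydrase-related protein, had 812 and 620 bp. Rnf121 had 661 and 633 bp, a single peak counted for 2 pairs. It is paired with Xntrpc across the printed span, and with Xndc1, whose 5′ end lies inside that span, 28 bp from that of Rnf121. Btf3l4/Txndc12 differed from the rest, with 2 peaks of 1884 bp in all at percentile 54.0 in WT + 2HG alone. Txndc12 encodes a thioredoxin-like protein of the endoplasmic reticulum. In WT and CLPP-KO the nearest peaks lay 101 and 83 bp outside the window, so its absence there turns on the window's edge.

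The pairs whose WT peak was absent from another list had weak peaks in WT. They were chosen here after their values were seen. Nadsyn1/Dhcr7, Meig1/Dclre1c and Eif3k/Map4k1 were marked in WT alone. Dhcr7 encodes the last enzyme of cholesterol synthesis and Nadsyn1 an NAD synthetase, and the WT peak of 317 bp, on Nadsyn1, was at percentile 6.16. Dclre1c, the Artemis nuclease, had 402 bp at percentile 3.0, and Eif3k, a translation initiation factor subunit, 581 bp at percentile 15.9. Bckdha, a subunit of the branched-chain keto acid dehydrogenase, is paired with Exosc5 of the RNA exosome, which was marked over 433 bp in WT (percentile 23.4) and 249 bp in CLPP-KO but not in WT + 2HG. Cdc26/Prpf4 had the same pattern, with 320 bp in WT and 433 bp in CLPP-KO. Mitd1/Mrpl30 was marked in WT (334 bp) and WT + 2HG (1026 bp) and not in CLPP-KO. Mrpl30 belongs to the mitochondrial ribosome.

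Among pairs marked in both lists, the marked width was at least 1.5 times that of WT in 42 of 297 pairs in WT + 2HG, where 12.9% of all coding promoters marked in both passed this limit, and in 41 of 295 pairs in CLPP-KO, against 13.0%. The pairs' own shares were 14.1 and 13.9%. With each list limited to the WT number of peaks, 36 pairs passed it for WT + 2HG, and 27 for CLPP-KO. A width of at most 1 part in 1.5 was found at 10 pairs in WT + 2HG (3.37%), against 1.60% of all coding promoters, and at 10 in CLPP-KO (3.39%), against 1.41%. The largest ratio in both lists was at Zfp91/Lpxn. Zfp91 encodes a zinc finger ubiquitin ligase and Lpxn the focal adhesion protein leupaxin. Its peak was 388 bp in WT, 1605 bp for WT + 2HG and 1575 bp for CLPP-KO, the percentile was 22.8, 94.1 and 89.6, and the width ratios were 4.14 and 4.06. The edge in the printed span stayed 49 to 56 bp short of the Lpxn 5′ end in the 3 lists, while the edge in Zfp91 lay 378 bp into the gene in WT, 1591 bp for WT + 2HG and 1558 bp for CLPP-KO. Gm44505/Lpxn is served by the same peak. The kinetochore gene Zwilch had no peak in WT, when Rpl4, a ribosomal protein gene, had 379 bp, and the pair had 1229 bp for WT + 2HG and 984 bp for CLPP-KO. Bloc1s3/Trappc6a had 609 bp in WT, 2061 bp for WT + 2HG and 1701 bp for CLPP-KO.

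Other pairs had a large width ratio in only 1 list, or a narrower mark than in WT. Smc1b, a meiotic cohesin subunit, with Ribc2 had 206 bp in WT, 174 bp for WT + 2HG and 709 bp for CLPP-KO, and Zfp672/Sh3bp5l had 634, 796 and 1792 bp. The smallest ratios in WT + 2HG were at Caskin2/Tsen54 (2988 bp in WT, 1272 bp in WT + 2HG, 2809 bp in CLPP-KO), Klhl28/Togaram1 (2116, 1143 and 1281 bp) and Trappc13/Trim23, whose peaks are shared with Shld3/Trim23 (1098, 624 and 1218 bp). In CLPP-KO they were at Cimap1c/Cspg4, Cspg4 being the NG2 proteoglycan (857, 1107 and 330 bp), Rps28/Ndufa7 (851, 897 and 336 bp), Esf1/Ndufaf5 (1476, 1442 and 682 bp) and Ushbp1/Babam1 (865, 1248 and 451 bp). By the 1.5 limit, Klhl28/Togaram1 was narrower than in WT in both lists, and each of the others in 1 list.

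**Figure D5:**
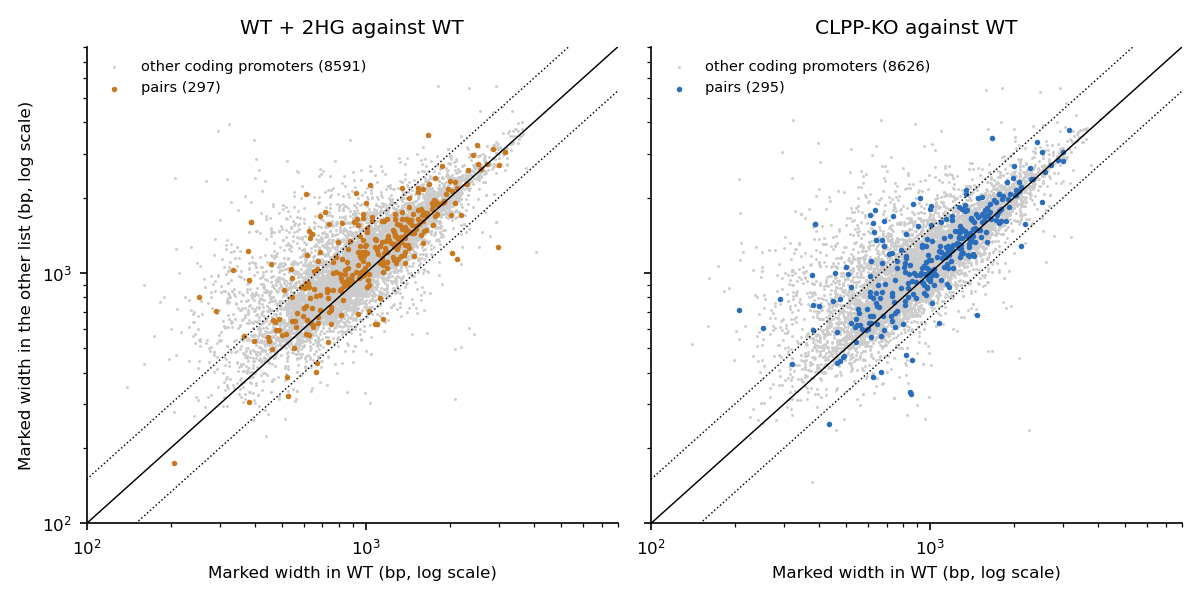
Marked width (bp, log scales) in WT + 2HG (left) and CLPP-KO (right) against WT, for pairs (coloured, 297 and 295) and other coding promoters (grey, 8591 and 8626) marked in both lists; the solid line is equality and dotted lines are 1.5 times wider or narrower. Pairs lie within the cloud of other promoters, with median ratios of 1.10 and 1.08.

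Function lists were counted over pairs with at least 1 member. A pair was marked by a peak at either gene, so the peak may lie on a partner outside the list. The shares of other promoters count single promoters of listed genes, so they are not like-for-like with the pairs. Of 11 pairs with a gene of oxidative phosphorylation, 9 were marked in every list. Besides Uqcrh and Atp5if1, genes of these pairs included the complex I subunits Ndufa2, Ndufv3 and Ndufa7 and the complex I assembly factors Ndufaf2 and Ndufaf5. Another was Ndufa4, which is named for complex I and works in complex IV. In some of these pairs the peak lay on the partner. Uqcrh and Atp5if1 were unmarked in WT, and the Rps28/Ndufa7 peak lay on Rps28 alone in WT and WT + 2HG. Cebpz/Ndufaf7 was marked outside WT, and Ndufa5/Asb15 had no peak. Among other coding promoters of this list, 75.7, 82.0 and 82.9% were marked in WT, WT + 2HG and CLPP-KO. Of 6 pairs with a mitochondrial ribosomal protein, 3 were marked in every list, 2 in some (Mitd1/Mrpl30 and Mrpl54/Apba3) and 1, Mrpl50/Zfp189, in none. Other promoters of this list were marked in 83.3% (WT and WT + 2HG) and 86.1% (CLPP-KO). Of 8 pairs with a cytosolic ribosomal protein 7 were marked in every list, the exception being Rnf151/Rps2, which had a CpG ratio of 0.161 and a peak 657 bp or more outside its window. The share of other cytosolic ribosomal promoters marked was 75.8% in each list. Rpl9/Lias, the latter the lipoic acid synthase of mitochondria, shared 1 peak of 1379, 1217 and 1301 bp. Both pairs with a mitochondrial import gene, Elp4/Immp1l and Timm9/2700049A03Rik, were marked in every list, as were 2 of 3 with a proteasome gene. Among the others, the shares were 75.8, 81.8 and 81.8% for import and 80.9, 78.7 and 80.9% for the proteasome, in the order WT, WT + 2HG and CLPP-KO.

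DNA replication and repair held 21 pairs, of which 15 were marked in every list, 6 in some and 0 in none. By list, 18, 20 and 17 of the 21 were marked, against 78.2, 80.9 and 86.4% of the other promoters of this list. Of 9 pairs with an RNA polymerase or splicing gene, 6 were marked in every list and 3 in some, against 84.2, 82.9 and 81.6% of the other promoters in the 3 lists. Of 15 pairs with a zinc finger gene, 12 were marked in every list and 3 in none. That is 80.0% of such pairs, by a peak at either gene, against 52.7% of other single zinc finger promoters in WT. The WT peak of Zfp661/Mrps5, for example, lay on Mrps5. The list of developmental regulators held only genes with Hox, Fox, Sox, Nkx, Pax, Gata, Tbx or Wnt symbols. Foxa3/Sympk was the only pair with a gene of that list, and no pair held an aminoacyl-tRNA synthetase.

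Replication-dependent histone genes stood apart. Of 14 pairs 3 were marked in every list and 11 in none. The 3, H2bc26/H2ac25, H2ac12/H2bc12 and H2ac11/H2bc11, are H2A and H2B genes that share a divergent promoter, and each had separate peaks on both genes in every list. Their marked widths were 1338, 1175 and 1869 bp, 1252, 1156 and 1314 bp, and 1020, 1085 and 1337 bp in WT, WT + 2HG and CLPP-KO. Among 46 other histone promoters 30.4, 32.6 and 30.4% were marked, so the low share was not limited to pairs. These genes are near-identical copies, and reads that map to several copies may be left out or split by the mapping, so the absence of a peak is uncertain here. The 14 pairs had CpG ratios between 0.642 and 0.998, and of the 19 unmarked pairs with a ratio of at least 0.6, 11 held histone genes.

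The 55 pairs without a peak in any list differed in sequence from the 293 marked in all. Their CpG ratio had a median of 0.412 (0.264 to 0.577) against 0.765 (0.753 to 0.792), with 0.702 (0.594 to 0.745) at the 38 pairs marked in some lists. The GC box was present in 34.5% of their genes against 71.9%, the GABP site in 2.73% against 11.9%, and TATAAA in 20.9% (14.4 to 29.4%) against 3.10% (1.97 to 4.85%). NRF1 sites were in 0 of 110 genes, which by the limit of 3 counts allows a share of up to 2.73% (3.37% by the Wilson interval), against 6.38%. CCAAT boxes were in 55.5% against 51.9%. Of the 55 pairs, 11 held histone genes, whose missing peaks are uncertain. H2ac8/H2bc8, with the printed TATAAA and CCAAT boxes, is among them. The motif shares were not counted without histone genes. For 18 of the 55, a peak lay at another annotated start of a gene of the pair, and for 6 a peak lay within 1000 bp of the window. Unmarked pairs included genes known from other tissues, such as Pecam1/Milr1 of endothelium and mast cells, Actl7b/Actl7a of sperm, and Duox2/Duoxa2 of thyroid. The 5 with the closest 5′ ends were Haus5/2200002J24Rik, Scnm1/Lysmd1, Ftsj3/Psmc5, Nek8/Tlcd1 and Ctnnd1/Btbd18. Ftsj3, an rRNA methyltransferase, and Psmc5, an ATPase of the proteasome, are used in every cell, have 5′ ends 22 bp apart and a CpG ratio of 0.662, and had their nearest peak of any list 37989 bp outside the window. The authors left a set of genome ranges out of peak calling. Whether this pair lies in one was not tested, so the absence of its peak is uncertain.

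Several pairs hold metabolic enzymes or imprinted genes, and those described here were chosen after their values were seen. Idh1, the cytosolic isocitrate dehydrogenase, is paired with Pikfyve, a phosphoinositide kinase. The peak lay on Pikfyve alone in every list (976, 1015 and 872 bp), and the 500 bp from the Idh1 5′ end had none. Mvk, mevalonate kinase of sterol synthesis, and Mmab, which makes adenosylcobalamin, had separate peaks in WT (988 bp in all) and CLPP-KO (1132 bp) and 1 spanning peak of 1170 bp in WT + 2HG. Mdh2, the mitochondrial malate dehydrogenase, and Styxl1 had separate peaks of 1403, 1649 and 1640 bp in all. The imprinted pair Sgce/Peg10 was marked at both genes in every list (1096, 1242 and 939 bp), and Peg3/Usp29, imprinted likewise, at Peg3 alone (569, 694 and 600.0 bp).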

How the data were processed

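The mBA cells gave 12 H3K4me3 ChIP–seq samples, 4 per condition, beside 3 inputs. The authors trimmed reads with fastp 0.23.4, mapped them to GRCm39 with BWA 0.7.17 and called peaks with Genrich 0.6.1 on the 4 replicates of a condition together, per the labels and the study's methods. Their call left out the sex chromosomes and a set of excluded genome ranges. The deposited lists give for each peak a signal, the area under the curve (at least 200), a summit −log10 p-value and a capped score. These are the authors' values, not scaled between lists, and they were used only as ranks or filters within a list. The lists hold no read counts, so the depth of each sample could not be computed from them. The input library of each condition was the caller's control for its 4 ChIP samples, and the input samples were not analysed here.

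Genes came from GENCODE M39 and sequences from the GRCm39 genome, whose chromosome lengths held every peak (0 beyond an end). Pairs, windows and overlaps were computed with pysam 0.24.0, numpy 2.4.6, scipy 1.17.1 and pandas 2.3.3 in Python 3.11.15. Peak starts were made 1-based. The code was tested on simulated data, where 250 of 250 planted pairs were found with 0 in error, and 1158 of 1158 real window and list combinations equalled bedtools 2.31.1. No p-value was computed, since each condition has 1 list.

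The members, gene lists and comparisons were chosen with earlier results of these data known. Pairs were named as textbook pairs; the 12 strongest that differed in presence; the 5 strongest; the 4 largest and smallest width ratios; the 5 closest unmarked; the 5 strongest with separate peaks; 8 marked at 1 end in WT and both elsewhere; and the marked pairs with the closest and most distant 5′ ends. Others are said to be chosen later. Alternatives changed thresholds, list sizes, windows, overlap, merging of peaks and the comparison set. A split of gained peaks by CpG ratio was added after seeing the data. Some pairs are not reported here.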

Additional observations from a re-analysis of the deposited data

How the results depend on the processing

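Of 212 values recomputed for 18 results under 14 alternative settings, 167 stayed within the limits set for a change and 45 moved. A summit p of at most 1e-05 gave marked shares of 69.4% of pairs in WT, 78.2% for WT + 2HG and 76.7% for CLPP-KO, 40.0% of other promoters in WT, both ends marked in 58.8% of CLPP-KO pairs, and 2 and 3 WT peaks absent from WT + 2HG and CLPP-KO. An area of at least 1000 gave 66.3, 76.2 and 75.9% of pairs, 38.0% of others, both ends in 59.0% in CLPP-KO, 40 and 38 pairs with a peak not in WT, and 2 and 1 without their WT peak, in WT + 2HG and CLPP-KO. Limiting each list to the WT number of peaks gave 75.9% of pairs marked in CLPP-KO, below WT, both ends in 59.0%, 13 pairs with a peak not in WT and 27 at least 1.5 times wider, and 15 (WT + 2HG) and 22 (CLPP-KO) pairs without their WT peak. An overlap of 200 bp put both ends at 44.6, 55.2 and 53.7% in WT, WT + 2HG and CLPP-KO, and other promoters at 41.4%. With the summit in the window, the marked shares were 69.2, 75.1 and 75.7%, both ends 16.5, 14.1 and 15.8%, other promoters 31.1%, the median width in WT 955 bp, pairs with a peak not in WT 41 (WT + 2HG) and 46 (CLPP-KO), and pairs without their WT peak 18 and 21. Merging peaks within 1000 bp raised the spanned shares to 53.0, 65.1 and 65.5%. Windows extended by 250 or 1000 bp put other promoters at 40.3 and 46.2% in WT, leaving out those with a gene on the opposite strand within 1000 bp at 33.7%, and keeping those with a CpG ratio of at least 0.6 at 85.6%. Beyond what each setting removes by construction, the cause was not tested. Leaving out histone genes, pairs that share a gene, or pairs over 500 bp apart moved no result. Around midpoints in 1001-bp windows, states of the ends could not be given. No paired analysis was possible because the 4 replicates of a condition share 1 list, and for the same reason no replicate could be left out. The lists do not give the depth behind an absent peak.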
